A study of Rattus norvegicus with 3 samples.

Results

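The genes described here carry out glutathione metabolism, thioredoxin chemistry and the removal of reactive oxygen species, and they comprised 57 of the 35561 gene names on a rat Agilent expression array. They were taken by gene name: the subunits and enzymes of glutathione synthesis and reduction, the glutathione S-transferases (GSTs), the glutathione peroxidases, the thioredoxins and glutaredoxins with their reductases, the peroxiredoxins, the superoxide dismutases, catalase, the quinone reductases and haem oxygenases, the metallothioneins, and the regulators Nfe2l2 (Nrf2) and Keap1. The 57 genes had 72 of the 41012 gene probes. No probe carried the name Mt2A, which the rule also lists.

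The study set rat iPS F65 cells, an induced pluripotent stem cell line, against a mixed RNA named mix1 that stands for adult rat cells, made up of bone marrow cells in culture and fibroblasts grown from the ear. Each of 3 arrays on 1 slide carried an iPS F65 sample labelled with Cy3 and mix1 labelled with Cy5, with no dye swap, so that dye and cell type cannot be told apart. The iPS F65 cells were untreated and grew in ES cell medium on a feeder layer of irradiated mouse embryonic fibroblasts, while both adult cell types grew in serum medium with no feeder layer named. The ES cell medium also held serum and, unlike the adult media as described, non-essential amino acids and the thiol reductant β-mercaptoethanol; medium and cell type cannot be told apart. The sources used here give no strain, age or sex, no proportion of the cell types in mix1, and no statement that the 3 iPS F65 samples came from separate cultures. Only 1 iPS line was measured, and mix1 counts as 1 control sample, so p-values cover only the spread between the 3 hybridisations, which may be technical, and leave out the spread of mix1.

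Each array held 45018 spots, of which 43379 were gene spots. The share of gene spots well above background ran from 57.1% to 61.2% for iPS F65 and from 58.3% to 62.1% for mix1. The cell types showed in their markers. All 14 tested fibroblast markers were lower in iPS F65 cells, with summed signals of 18337 to 24177 in iPS F65 cells and 4163123 to 5385703 in mix1, and Thy1 and Postn were not well above background on any iPS F65 array. Of 12 tested macrophage and myeloid markers, 11 were lower in iPS F65 cells, where Itgam, Adgre1, Aif1 and Mrc1 were not well above background on any array; the summed signals were 3561 to 4688 in iPS F65 cells and 264142 to 308207 in mix1. Of 6 tested pluripotency markers, 5 were higher in iPS F65 cells, where they summed to 23045 to 26827, against 1790 to 1994 in mix1. Of 3 tested markers of early endoderm and liver, Afp was higher in iPS F65 cells (log2 ratio 5.01), Gata6 was lower (-2.93) and Hnf4a was neither (-0.22). In bulk RNA of this kind, fewer cells of a type and less RNA per cell cannot be told apart, and the part of fibroblast and myeloid RNA in the differences below was not tested.

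Glutathione is a small thiol that is made from glutamate, cysteine and glycine, is oxidised when peroxidases use it to reduce peroxides, and is returned to its reduced form by glutathione reductase with NADPH. The thioredoxins form a parallel thiol system that feeds the peroxiredoxins. Nrf2 is a transcription factor that binds antioxidant response elements in many of these genes, and Keap1 holds it in the cytosol for degradation until oxidants or electrophiles modify Keap1. Pluripotent cells are known to rely largely on glycolysis and to hold immature mitochondria.

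In iPS F65 cells the antioxidant genes were more often lower than higher. Of the 57 genes, 50 had a tested probe, meaning one well above background on all 3 arrays in at least 1 of the channels, and each gene was read from its brightest tested probe. By limma's moderated test of the log2 ratio of processed signals, calling a gene where its p adjusted by Benjamini-Hochberg was under 0.05 and its log2 ratio lay at or beyond -1 or 1, 23 genes were lower in iPS F65 cells than in mix1, 4 were higher and 23 were neither. The background over all 21803 tested genes was 24.5% lower and 30.9% higher, or 55.4% in either direction. Of the 23 lower genes, Gsta3, Gstt1, Mt3 and Txnrd3 passed the filter only through mix1, were not well above background on any iPS F65 array and so had to be lower to be tested; for these 4 only a bound is given. Gpx3 and Gstm2, well above background on 2 of 3 iPS F65 arrays, also passed only through mix1. Where both channels had to be well above background on all arrays, 17 genes were lower and 4 higher. The share over all genes was not counted under that filter, so these counts have no background of their own. The median log2 ratio of the antioxidant genes was -0.87, beside 0.25 over all tested genes. Among the 23 genes that were neither, the 95% interval of the log2 ratio lay within -1 and 1 for 21; the exceptions were Keap1 and Gpx4. Since 24680 of the 25801 tested probes had an adjusted p under 0.05, the fold threshold set most calls.

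Log2 ratios are for iPS F65 over mix1 and are given as the mean ± SD of the 3 arrays (n = 3), so that a negative value means lower in iPS F65 cells. Signals are the scanner software's processed signals in arbitrary units, listed in the order of arrays 1 to 3. The 50 genes had 61 tested probes, of which 5 were higher and 29 lower, beside 31.2% higher and 24.1% lower over all tested probes, and 58 of the 61 had the same sign on all 3 arrays. At a log2 ratio at or beyond -2 or 2, 22 of the 61 were lower and 0 were higher, beside 15.2% lower and 12.1% higher over all tested probes. The SD over arrays had a median of 0.029 for these 61 probes, beside 0.043 for all tested probes, and was largest for Gstm2, at 0.43. No gene spot on any array was saturated. Another scaling is named beside a gene where it ends the call or moves the fold by more than 1.5 times: normexp background correction and loess within each array, either with uneven local backgrounds replaced (called loess below) or with all local backgrounds as given.

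**Figure D1:**
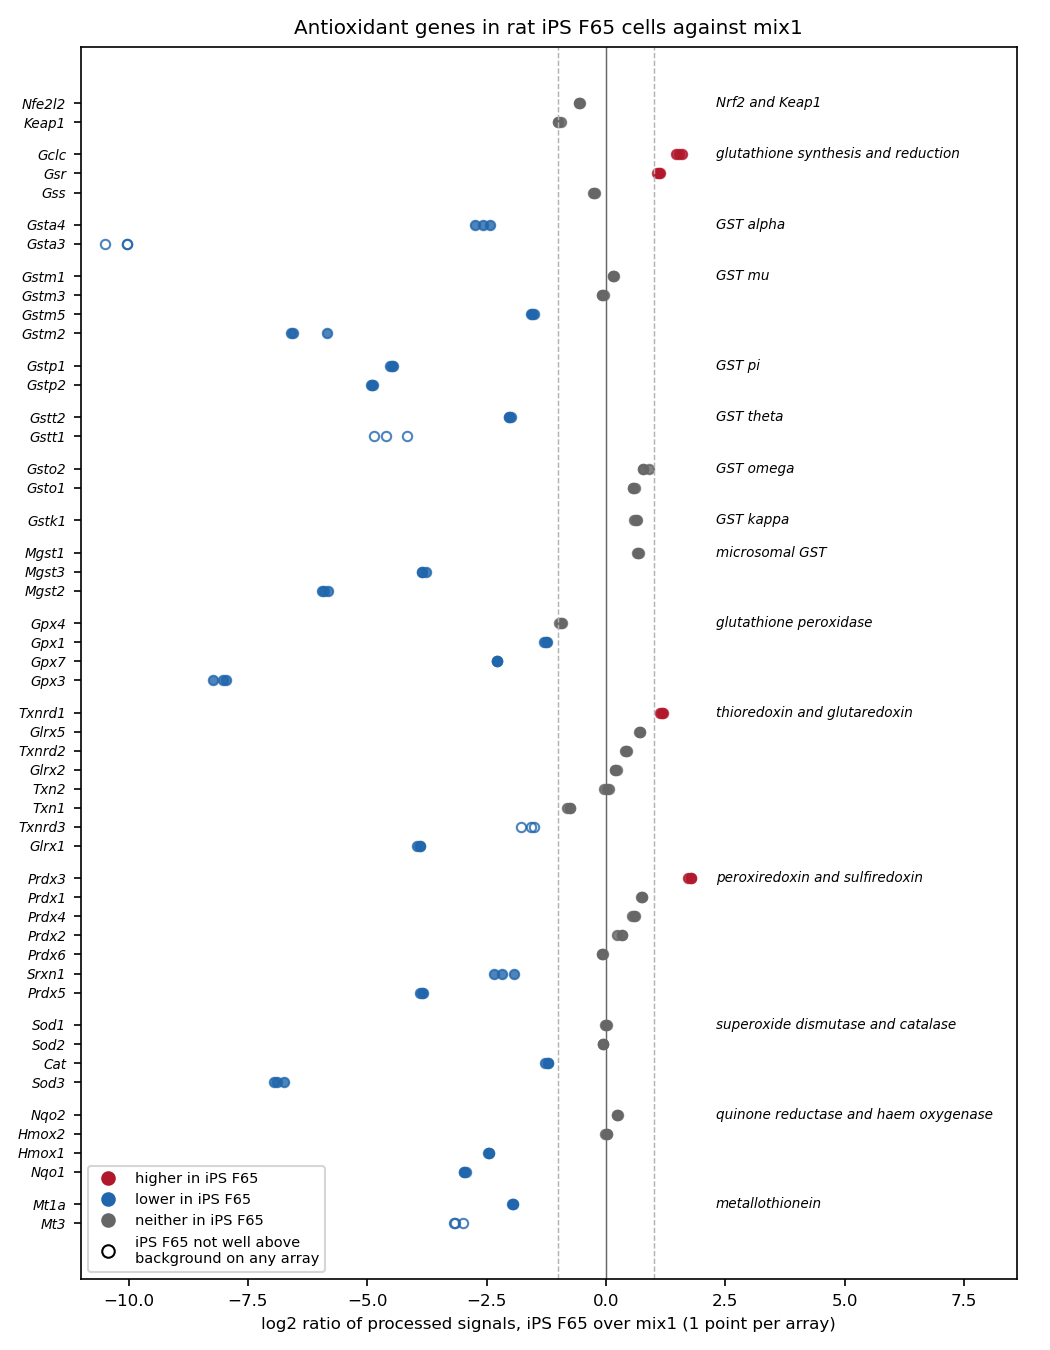
Log2 ratio of processed signals (iPS F65 over mix1, horizontal axis) for the 50 tested genes, grouped by role on the vertical axis, with 1 point for each of the 3 arrays. Red genes were higher in iPS F65 cells, blue lower and grey neither; dashed lines mark log2 ratios of -1 and 1, and open points mark genes not well above background on any iPS F65 array, so that their ratio is not a measured fold. The points of a gene lie close together; the highest point is 1.77 (Prdx3) and the lowest of a gene with filled points is -8.24 (Gpx3).

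Neither of the regulators passed the fold threshold. Nfe2l2, which encodes Nrf2, gave signals of 11643, 13643 and 13567 in iPS F65 cells, against 17276, 20108 and 19817 in mix1. All 3 iPS F65 signals lay below all 3 mix1 signals, and the log2 ratio of -0.56 ± 0.011 did not reach the fold threshold. Keap1, the adaptor through which Nrf2 is ubiquitinated, gave 1436, 1692 and 1729.9 in iPS F65 cells, against 2894, 3403 and 3352 in mix1. Its groups did not overlap either, and its log2 ratio of -0.99 ± 0.032, with a 95% interval of -1.05 to -0.93, fell at the threshold: without array 3 it was -1.01 and Keap1 was counted as lower.

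Of the 3 tested genes of glutathione synthesis and reduction, 2 were higher in iPS F65 cells: those for the first step of synthesis and the reduction of the oxidised form. The background over all tested genes was 30.9% higher. Gclc, the catalytic subunit of glutamate-cysteine ligase, the rate-limiting enzyme of synthesis, had signals of 1790.2, 2126 and 2121 in iPS F65 cells, against 649.7, 702 and 741 in mix1. The groups did not overlap, and Gclc was higher in iPS F65 cells with a log2 ratio of 1.53 ± 0.068 (adjusted p = 3.2e-05, limma), or 2.88-fold. After loess it was 1.01, and with backgrounds as given it was 0.79 and not called. Gsr, glutathione reductase, had 1731, 2020.1 and 2109 in iPS F65 cells, against 806, 918 and 1014 in mix1. Every iPS F65 signal was above every mix1 signal, and the log2 ratio was 1.10 ± 0.041, or 2.14-fold (adjusted p = 2.8e-05, limma), but 0.58 after loess and 0.54 with backgrounds as given, not called in either. Gss, glutathione synthetase, which adds glycine in the last step, had 9414, 10852 and 10828 in iPS F65 cells, against 11294, 12675 and 13022 in mix1. Its iPS F65 signals were all below those of mix1, by a log2 ratio of -0.25 ± 0.023 that did not reach the threshold. The single probe of Gclm, the modifier subunit of glutamate-cysteine ligase, did not rise well above background in iPS F65 cells or mix1 on any array.

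The GSTs, which join glutathione to electrophiles and bind hydrophobic ligands, held the most genes that were lower in iPS F65 cells. Of 19 GST genes 16 were tested, and 10 were lower, 0 higher and 6 neither; with all genes read the same way, the background was 24.5% lower. Of the 10, Gsta3, Gstt1 and Gstm2 passed the filter only through mix1. By class, both tested alpha, both pi and both theta genes were lower, as were 2 of 4 mu genes and 2 of 3 microsomal genes, while both omega genes and the kappa gene were neither.

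Gsta3, an alpha class enzyme that RefSeq now names Gsta1, gave 36.6, 57.0 and 58.1 in iPS F65 cells, against 52304, 60102 and 60917 in mix1. The probe was not well above background on any iPS F65 array and was bright on all 3 mix1 channels, so only a bound can be given. The level was at least 878-fold lower in iPS F65 cells (adjusted p = 9.3e-06, limma), or at least 531-fold lower after loess. With backgrounds as given it was still called, but its log2 ratio of -6.70 is a smaller fold than either bound. Each bound therefore holds only for its own scaling. Here and at the other bounds, the adjusted p is for the fitted ratio with iPS F65 at background, and does not test the bound. Gsta4, which favours the lipid peroxidation product hydroxynonenal, was also lower, with a log2 ratio of -2.59 ± 0.16. Neither probe of Gsta2 passed the filter. The probe that read Gsta3 was this 60-mer, shown because the gene had the lowest ratio of all 50.
Gsta3: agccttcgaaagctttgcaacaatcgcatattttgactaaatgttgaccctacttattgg

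The probes named Gstp1 and Gstp2 were lower in iPS F65 cells by similar ratios. Gstp1, the main pi class enzyme, gave 2401, 2752 and 2826 in iPS F65 cells, against 55298, 61958 and 61963 in mix1. Gstp2, named as a pi class gene in the array's design and not matched in RefSeq, gave 4263, 5165 and 5327 in iPS F65 cells, against 129716, 155347 and 156739 in mix1. Neither gene's groups overlapped, and the log2 ratios were -4.49 ± 0.036 for Gstp1 (22.5-fold lower, adjusted p = 5.5e-06, limma) and -4.91 ± 0.025 for Gstp2 (30.0-fold lower, adjusted p = 5.3e-06, limma). Since a probe can bind the transcript of a paralogue, the sequences of both probes are given.
Gstp1: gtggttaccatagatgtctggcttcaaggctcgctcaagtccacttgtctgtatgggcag
Gstp2: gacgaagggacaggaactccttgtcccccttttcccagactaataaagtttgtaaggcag
No ungapped alignment of at least 20 identical bases at 75% identity or more was found between these probes, nor between any other pair of the 72 probes. The probes thus read different stretches of sequence, which does not show that they read different genes. In the files' coordinates, of unnamed build, they start at 206782597 (Gstp1) and 206780855 (Gstp2) on the same strand of chromosome 1. They are counted as 2 genes by name, and whether they read the same gene was not tested. Whether each probe also binds the paralogue's transcript elsewhere was not tested.

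The mu class genes lie in 1 cluster on chromosome 2 in the RefSeq gene order (Gstm5, Gstm3, Gstm6, Gstm4, Gstm2, Gstm1), yet their ratios were far apart. Gstm2 gave 67.2, 137 and 75.3 in iPS F65 cells, against 6529.6, 7823 and 7075 in mix1. It was well above background on 2 of 3 iPS F65 arrays, every mix1 signal lay above every iPS F65 signal, and the log2 ratio of -6.33 ± 0.43 had the largest spread of all (adjusted p = 7.0e-05, limma). With backgrounds as given it was -3.82, still called. Its neighbour Gstm1 had a log2 ratio of 0.15 ± 0.0082 and overlapping groups. Gstm3, now Gstm7 in RefSeq, also had overlapping groups and a log2 ratio of -0.07 ± 0.024. Gstm5, at the end of the cluster, gave 3133, 3795 and 3708 in iPS F65 cells, against 8964, 11165 and 11002 in mix1 with its brightest probe. That probe was lower in iPS F65 cells, at a log2 ratio of -1.55 ± 0.027 without overlap. Gstm5's other 2 tested probes were called lower as well, one at -1.94 and the other, not well above background on any iPS F65 array, by at least 3.63-fold, but in the files' coordinates they lie on the opposite strand to the brightest probe. Neither of these 2 was called with backgrounds as given, at -0.64 and -0.62 in the same order. The probes of Gstm4 (Gstm3 in RefSeq) and Gstm6 did not pass the filter.

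Both theta class genes were lower in iPS F65 cells. Gstt1 gave 21.8, 45.3 and 31.0 in iPS F65 cells, against 629, 809.6 and 759.7 in mix1. No iPS F65 array had it well above background, so that it was at least 11.1-fold lower (adjusted p = 1.0e-04, limma), or at least 6.81-fold after loess, and it was not called with backgrounds as given (log2 ratio -1.39, adjusted p = 0.2, limma). Gstt2, which lies 3 genes away, gave 863, 967 and 959.8 in iPS F65 cells, against 3539.7, 3964 and 3826 in mix1. The groups were separate on all arrays, with a log2 ratio of -2.02 ± 0.024 (adjusted p = 6.8e-06, limma), and its second probe gave -2.16. With backgrounds as given the second probe was at -0.95 and not called. By contrast, the omega class pair Gsto1 and Gsto2, adjacent genes whose products reduce dehydroascorbate, had log2 ratios of 0.57 ± 0.023 and 0.81 ± 0.067, both with iPS F65 signals above those of mix1 but short of the threshold. The kappa class gene Gstk1, a mitochondrial and peroxisomal enzyme, had 0.62 ± 0.028.

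Among the microsomal GSTs, which sit in membranes, 2 were lower. Mgst2, which can make leukotriene C4, gave 375, 493 and 453 in iPS F65 cells, against 22999, 27870.5 and 27166 in mix1. Its groups were far apart, with a log2 ratio of -5.89 ± 0.061 (59.2-fold lower, adjusted p = 5.5e-06, limma), or -4.65 with backgrounds as given. Mgst3 had -3.83 ± 0.045 (-2.82 with backgrounds as given), with -3.58 at its second probe, and Mgst1 had 0.67 ± 0.015 and was not called.

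Of 4 tested glutathione peroxidases, which reduce peroxides with glutathione, 3 were lower in iPS F65 cells and none was higher. The background over all tested genes was 24.5% lower, and Gpx3, among the 3, passed the filter only through mix1. Gpx3, the secreted plasma form, gave 59.6, 79.8 and 84.0 in iPS F65 cells, against 17977, 20707 and 20959 in mix1. It was well above background on 2 of 3 iPS F65 arrays, all far below mix1, with a log2 ratio of -8.07 ± 0.14 (269-fold lower, adjusted p = 6.7e-06, limma). The size depended on the background setting: the log2 ratio was -7.57 after loess and -5.26 with backgrounds as given, called lower in both. Gpx7, an enzyme of the endoplasmic reticulum, had a log2 ratio of -2.28 ± 0.0057, also lower. Gpx1, the cytosolic and mitochondrial selenoenzyme, gave 44807, 55442 and 54181 in iPS F65 cells, against 109664, 130307 and 129584 in mix1. It was lower on every array without overlap, at -1.26 ± 0.029 (adjusted p = 1.4e-05, limma), and its second probe gave -1.15. Gpx4, which reduces lipid hydroperoxides in membranes, gave 21784, 26026 and 26698 in iPS F65 cells, against 43128, 49360.1 and 51255 in mix1. Its iPS F65 signals were all below those of mix1, and the log2 ratio of -0.95 ± 0.032, with a 95% interval of -1.01 to -0.89, did not pass the threshold. Gpx2, Gpx5 and Gpx6, which are known from gut, epididymis and olfactory tissue, had no tested probe.

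**Figure D2:**
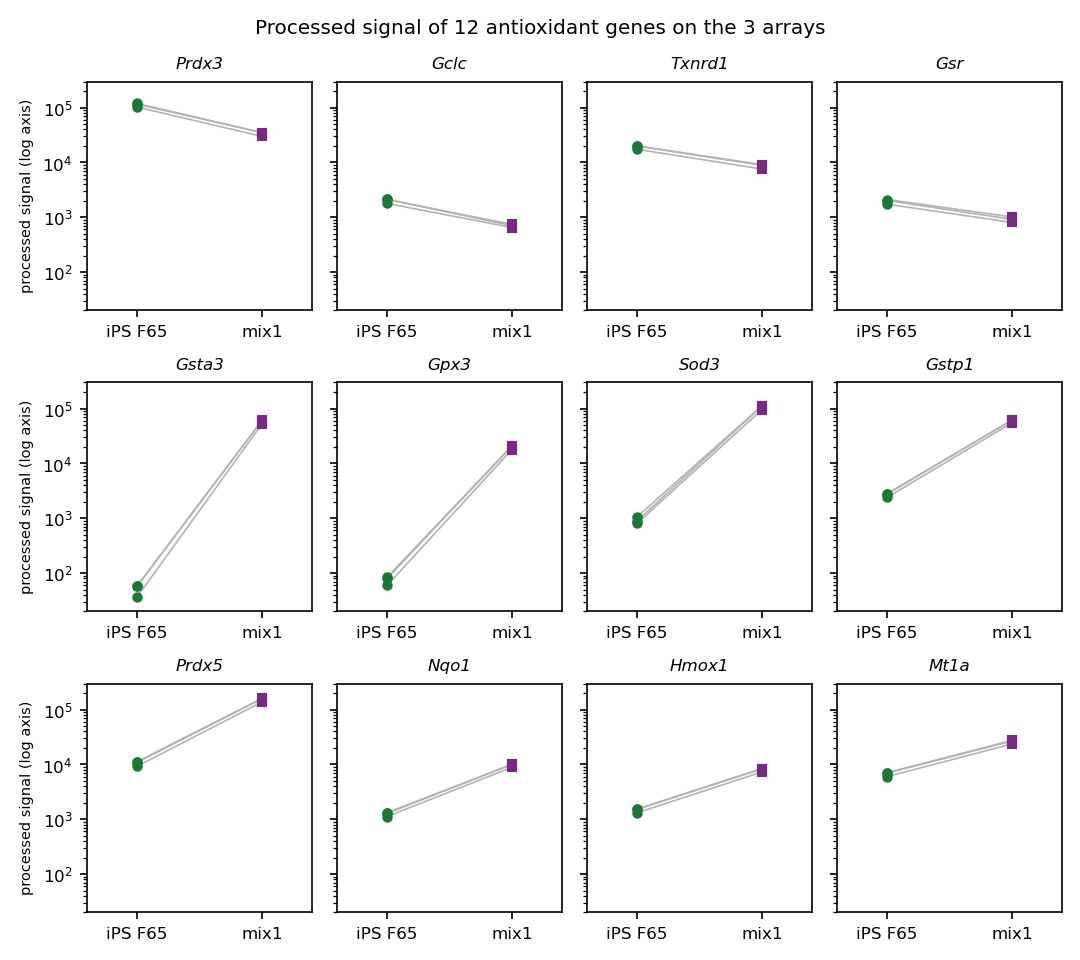
Processed signal (vertical, log axis, arbitrary units) of 12 of the genes in iPS F65 cells (green circles) and mix1 (purple squares), with a grey line joining both channels of each of the 3 arrays. Prdx3, Gclc, Txnrd1 and Gsr slope down from iPS F65 to mix1 on all 3 arrays, and the other 8 genes slope up; signals of different genes come from different probes and are not comparable with each other. Gsta3 was not well above background on any iPS F65 array.

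Thioredoxins and glutaredoxins reduce disulphides and mixed disulphides in proteins. Of the 8 tested genes for them and their reductases, 1 was higher in iPS F65 cells, 2 were lower and 5 were neither; one of the 2 was Txnrd3, for which the measured bound is short of the fold threshold. Over all tested genes 24.5% were lower and 30.9% higher. Txn1, cytosolic thioredoxin, gave 71384, 91036 and 88368 in iPS F65 cells, against 125387, 154499 and 150248 in mix1. All iPS F65 signals lay below those of mix1, and the log2 ratio was -0.78 ± 0.028, short of the threshold. Txnrd1, the cytosolic selenoenzyme that reduces thioredoxin, gave 17382, 19882 and 20083 in iPS F65 cells, against 7590.2, 8881 and 9139 in mix1 with its brightest probe. That probe was higher in iPS F65 cells without overlap, at 1.16 ± 0.03 or 2.24-fold (adjusted p = 1.6e-05, limma), but 0.81 and no longer called after loess. Txnrd1 had 4 tested probes, all with iPS F65 signals above those of mix1, but only 2 passed the threshold, and their sequences follow with the log2 ratio of each after the name.
Txnrd1 probe a (brightest), 1.16: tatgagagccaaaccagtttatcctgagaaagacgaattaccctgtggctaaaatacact
Txnrd1 probe b, 0.69: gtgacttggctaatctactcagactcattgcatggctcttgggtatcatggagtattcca
Txnrd1 probe c, 0.75: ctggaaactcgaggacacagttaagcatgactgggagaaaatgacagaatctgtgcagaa
Txnrd1 probe d, 1.37: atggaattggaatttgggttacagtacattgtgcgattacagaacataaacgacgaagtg
In the files' coordinates probe d lies on the opposite strand to the other 3, so that of the 3 same-strand probes 1 was called higher and 2 were not. Probe d was at 0.83 after loess and 0.41 with backgrounds as given, not called in either.

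Txnrd3, the testis form that carries a glutaredoxin domain, gave 33.7, 39.8 and 42.2 in iPS F65 cells, against 117, 118 and 121 in mix1. It was not well above background on any iPS F65 array, and the bound was at least 1.80-fold lower (adjusted p = 1.5e-04, limma); its log2 ratio was -0.82 after loess and -0.31 with backgrounds as given, and the call was lost in both. Glrx1, cytosolic glutaredoxin (Glrx in RefSeq), which removes glutathione from protein thiols, gave 500.3, 587 and 599 in iPS F65 cells, against 7734, 8679.7 and 8958 in mix1. It was 15.1-fold lower in iPS F65 cells without overlap, at a log2 ratio of -3.91 ± 0.033 (adjusted p = 5.5e-06, limma), or -3.12 with backgrounds as given. The mitochondrial genes Txn2, Txnrd2, Glrx2 and Glrx5, the last needed for iron-sulphur clusters, had log2 ratios of 0.01 ± 0.053, 0.42 ± 0.019, 0.20 ± 0.029 and 0.70 ± 0.018, and none passed the threshold. Only Txn2 of these 4 had overlapping groups.

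The peroxiredoxins reduce peroxides with electrons from thioredoxin, and of their 7 tested genes, sulfiredoxin included, 1 was higher in iPS F65 cells, 2 were lower and 4 were neither. The shares over all tested genes were 24.5% lower and 30.9% higher. Prdx3, the mitochondrial form, gave 102468, 119546 and 115397 in iPS F65 cells, against 30042, 35039 and 35023 in mix1. Every iPS F65 signal was above every mix1 signal, and its log2 ratio of 1.75 ± 0.029, or 3.37-fold, was the largest of the 50 genes (adjusted p = 8.5e-06, limma). Prdx5, whose product is found in mitochondria, peroxisomes and cytosol, gave 9248, 11232 and 10892 in iPS F65 cells, against 137909.9, 160215 and 157427 in mix1. It was lower on all arrays without overlap, at -3.86 ± 0.033 or 14.5-fold (adjusted p = 5.5e-06, limma). Prdx2, the cytosolic form abundant in red cells, gave 97731, 134386 and 130502 in iPS F65 cells, against 82896, 107000.3 and 103349.7 in mix1. The groups overlapped, with array 1 dimmer in both channels, and within each array the log2 ratio stayed short of the threshold, at 0.30 ± 0.055. Prdx1, Prdx4 and Prdx6, which act in the cytosol, the secretory pathway and the cytosol in that order, had 0.75 ± 0.0097, 0.57 ± 0.031 and -0.08 ± 0.015, and none passed the threshold. Srxn1, sulfiredoxin, which repairs overoxidised peroxiredoxins, was lower in iPS F65 cells at -2.16 ± 0.21 (adjusted p = 1.8e-04, limma), but was not called with backgrounds as given (log2 ratio -0.78, adjusted p = 0.2, limma).

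Superoxide dismutases turn superoxide into hydrogen peroxide, and catalase breaks hydrogen peroxide down; 2 of these 4 genes were lower in iPS F65 cells and 2 were neither. The background over all tested genes was 24.5% lower. Sod1, the cytosolic copper-zinc enzyme, gave 82891, 100325 and 99698 in iPS F65 cells, against 84643, 100003 and 97842 in mix1. The groups overlapped, and the log2 ratio was 0.00 ± 0.029, with a 95% interval of -0.06 to 0.06. Sod2, the mitochondrial manganese enzyme, gave 8133, 9704 and 8953 in iPS F65 cells, against 8465, 10213 and 9366 in mix1. These groups overlapped as well, with a log2 ratio of -0.07 ± 0.008 and an interval of -0.11 to -0.02. Sod3, the secreted extracellular form, gave 811, 1063 and 901 in iPS F65 cells, against 96275, 113275 and 111363 in mix1. Mix1 was far brighter on every array, and Sod3 was 116-fold lower in iPS F65 cells, at a log2 ratio of -6.86 ± 0.11 (adjusted p = 6.3e-06, limma), or -6.14 with backgrounds as given. Cat, the peroxisomal catalase, gave 409, 526 and 481 in iPS F65 cells, against 1000.4, 1222 and 1116 in mix1. It was lower without overlap, at -1.24 ± 0.043 (adjusted p = 2.3e-05, limma), but was not called with backgrounds as given (log2 ratio -0.84, adjusted p = 0.097, limma). The secreted pair Gpx3 and Sod3 thus showed 2 of the 3 lowest ratios of all 50 genes, beside summed fibroblast marker signals of 18337 to 24177 in iPS F65 cells and 4163123 to 5385703 in mix1. The part of the fibroblasts in these ratios was not tested.

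Among the quinone reductases and haem oxygenases, the 2 genes known as inducible Nrf2 targets were lower and the 2 others were neither, beside 24.5% lower over all tested genes. Nqo1, which reduces quinones with NADPH or NADH, gave 1123, 1280.1 and 1322 in iPS F65 cells, against 8875, 10003 and 10072 in mix1. The groups were separate, with a log2 ratio of -2.96 ± 0.027 or 7.78-fold lower (adjusted p = 5.8e-06, limma). Hmox1, the inducible enzyme that opens haem to biliverdin and is high in macrophages, gave 1315, 1536 and 1512 in iPS F65 cells, against 7293, 8435 and 8299.8 in mix1. It was lower without overlap, at -2.46 ± 0.0078 or 5.51-fold (adjusted p = 5.6e-06, limma). Nqo2, which uses another electron donor, had 0.24 ± 0.017, and the constitutive Hmox2 had 0.00 ± 0.02 with overlapping groups. Known Nrf2 targets thus went both ways: Nqo1, Hmox1 and Srxn1 were lower, while Gclc and Txnrd1 were higher. These genes are examples and not a count of all Nrf2 targets among the antioxidant genes. Txnrd1 lost its call after loess, and Gclc and Srxn1 lost theirs with backgrounds as given.

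Both tested metallothioneins, small cysteine-rich proteins that bind zinc and copper, were lower in iPS F65 cells. The share lower over all tested genes was 24.5%, and Mt3 passed the filter only through mix1. Mt1a, now Mt1 in RefSeq, gave 6015, 7079.9 and 6960.1 in iPS F65 cells, against 23688, 27513 and 26712 in mix1 with its brightest probe. The groups did not overlap, and the log2 ratio was -1.96 ± 0.019, or 3.89-fold lower (adjusted p = 6.6e-06, limma). Its second probe was not well above background on any iPS F65 array and was at least 3.98-fold lower there. That probe passed the filter only through mix1 and was not called with backgrounds as given (log2 ratio -0.93). Mt3, the form known from brain, gave 42.8, 52.7 and 46.6 in iPS F65 cells, against 386, 421 and 423 in mix1. It was not well above background on any iPS F65 array, and was at least 6.24-fold lower (adjusted p = 1.5e-05, limma), or at least 4.33-fold after loess, and was not called with backgrounds as given (log2 ratio -0.93, adjusted p = 0.22, limma). The 2 genes lie 2 steps apart on chromosome 19 in the RefSeq gene order, and metal response elements, read by the zinc sensor Mtf1, are known from metallothionein promoters. Their upstream windows are shown because the genes were lower together. Capitals mark the core letters TGCACNC or TGCGCNC on either strand; both windows are on the minus strand of GRCr8 and end at the base before the RefSeq start.
Mt1a, chr19:10832976-10833225: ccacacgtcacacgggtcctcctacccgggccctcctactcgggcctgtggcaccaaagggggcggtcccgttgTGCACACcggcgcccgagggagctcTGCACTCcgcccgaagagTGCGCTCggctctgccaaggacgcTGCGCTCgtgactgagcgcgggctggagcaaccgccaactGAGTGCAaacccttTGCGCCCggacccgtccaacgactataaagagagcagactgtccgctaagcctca
Mt3, chr19:10856081-10856330: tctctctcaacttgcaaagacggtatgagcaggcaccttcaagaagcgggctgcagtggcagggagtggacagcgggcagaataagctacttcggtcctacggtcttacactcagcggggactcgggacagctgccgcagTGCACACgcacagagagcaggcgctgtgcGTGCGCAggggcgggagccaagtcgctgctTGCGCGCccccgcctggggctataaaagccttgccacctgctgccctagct
The 250 bases held 6 matches for Mt1a and 3 for Mt3. Counted over 300-base windows with 50 bases after the start included, either core stood in 16 of the 49 antioxidant promoters with a RefSeq sequence, or 32.7%, and in 25.0% of all 27457 promoters.

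Promoters were also searched for the core of the antioxidant response element, TGACNNNGC, on both strands, since it is the binding sequence of Nrf2. The search took in 250 bases before the RefSeq start and 50 after it, so that elements further away were not counted. It stood in 14 of 49 antioxidant promoters, or 28.6%, and in 12.2% of all 27457. By direction, 5 of 17 promoters of lower genes held it (Gsta3, Gstm5, Gstp1, Mt1a and Prdx5), 6 of 22 of genes that were neither (Gstm3, Hmox2, Nfe2l2, Prdx1, Prdx4 and Sod2), 3 of 7 of genes not tested (Gclm, Gpx2 and Gsta2) and 0 of 3 of higher genes. Gsr, also higher, had no promoter sequence to search. The windows of Gstp1 and Prdx1 are shown because both hold the same match, TGACTCAGC, while their ratios were -4.49 and 0.75. Capitals mark the match. It lies on the printed strand for Gstp1 and on the other strand for Prdx1, and its first 7 letters are also the AP-1 site TGACTCA.
Gstp1, chr1:210769706-210769955 (GRCr8, minus strand): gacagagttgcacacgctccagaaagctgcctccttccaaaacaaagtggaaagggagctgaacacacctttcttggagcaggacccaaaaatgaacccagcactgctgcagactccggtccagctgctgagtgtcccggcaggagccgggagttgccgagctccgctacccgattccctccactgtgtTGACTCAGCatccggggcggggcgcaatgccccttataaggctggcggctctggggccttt
Prdx1, chr5:135383656-135383905 (GRCr8, plus strand): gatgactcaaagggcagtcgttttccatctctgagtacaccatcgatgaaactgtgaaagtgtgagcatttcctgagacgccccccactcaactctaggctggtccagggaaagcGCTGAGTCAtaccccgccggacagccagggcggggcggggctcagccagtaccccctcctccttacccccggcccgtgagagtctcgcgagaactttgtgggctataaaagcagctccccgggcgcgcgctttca
On the printed strand the match starts at base -61 for Gstp1 and at base -135 for Prdx1, counted back from the RefSeq start. The AP-1 letters alone stood in 6 of 49 antioxidant promoters, or 12.2%, and in 4.53% of all promoters. A match of letters is a description of the sequence only.

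Sorted by the compartment in which the product is known to work, assigned by hand, none of the 7 tested mitochondrial genes was lower in iPS F65 cells, 1 (Prdx3) was higher and 6 were neither, with a median log2 ratio of 0.42 (-0.03 after loess). Gstk1 is counted there. Of 4 genes whose products work in both mitochondria and cytosol, Gpx1 and Prdx5 were lower, Gsr was higher and Gpx4 was neither. Of 26 cytosolic genes 13 were lower, 2 were higher and 11 were neither, and both secreted genes were lower. The background over all genes was 24.5% lower, and the difference between compartments was not tested. Over all 50 genes, the 3 iPS F65 signals did not overlap the 3 mix1 signals for 42, lying below for 28 and above for 14, beside 36.6% below and 48.8% above over all tested genes.

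**Figure D3:**
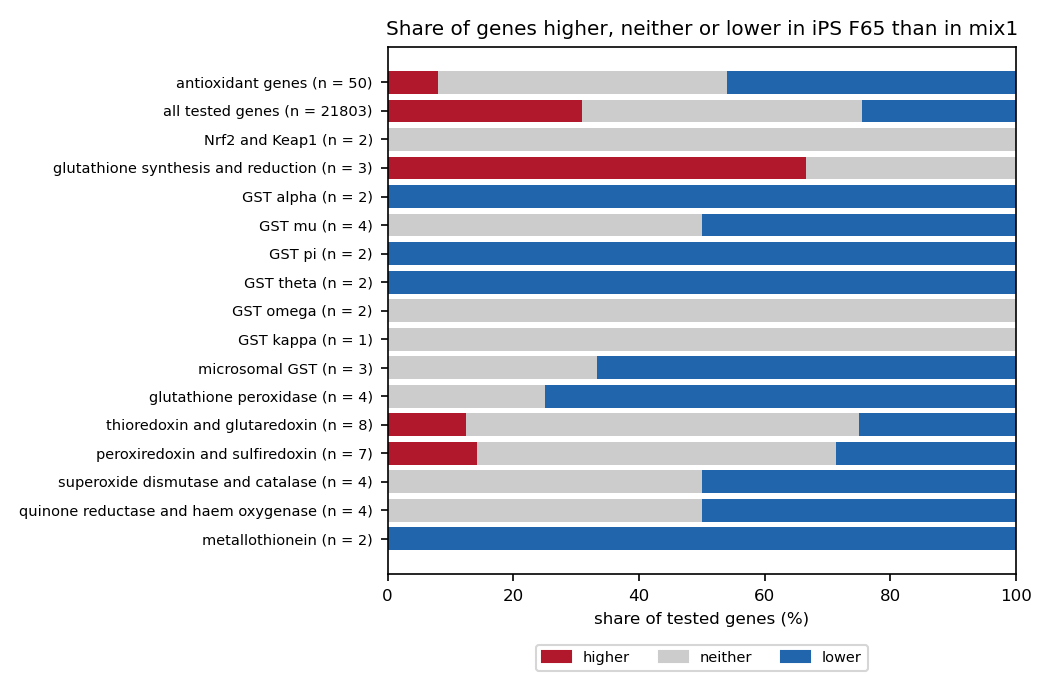
Share of tested genes (horizontal axis, %) that were higher (red), neither (grey) or lower (blue) in iPS F65 cells than in mix1, for the 50 antioxidant genes, for all 21803 tested genes, and for each class with its number of tested genes. The bar of the antioxidant genes holds 23 lower and 4 higher genes, and several classes hold only 1 to 4 genes.

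Scaling changed calls in both directions. After loess, with a normexp offset of 50, the median log2 ratio of all tested probes moved to -0.06 from the 0.27 of the processed signals, and the share of all calls that were higher was 41.8% in place of 56.5%. Of the antioxidant genes, 25 were then lower and 2 higher, with a median of -0.98, beside 26.1% lower and 18.3% higher over all genes. Prdx3 and Gclc stayed higher, at 1.52 and 1.01, while Gsr and Txnrd1, at 0.58 and 0.81, were no longer called. Keap1, Gpx4 and Txn1 were called lower, at -1.38, -1.14 and -1.09, and the call for Txnrd3 was lost. With the backgrounds taken as given before loess, 19 of the 61 probes were lower and 2 higher, beside 9.14% lower and 10.8% higher over all tested probes; the 2 higher ones read Prdx3 and Txnrd1. Of the 27 called genes, Cat, Gclc, Gsr, Gstt1, Mt3, Srxn1 and Txnrd3 lost their call there.

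**Figure D4:**
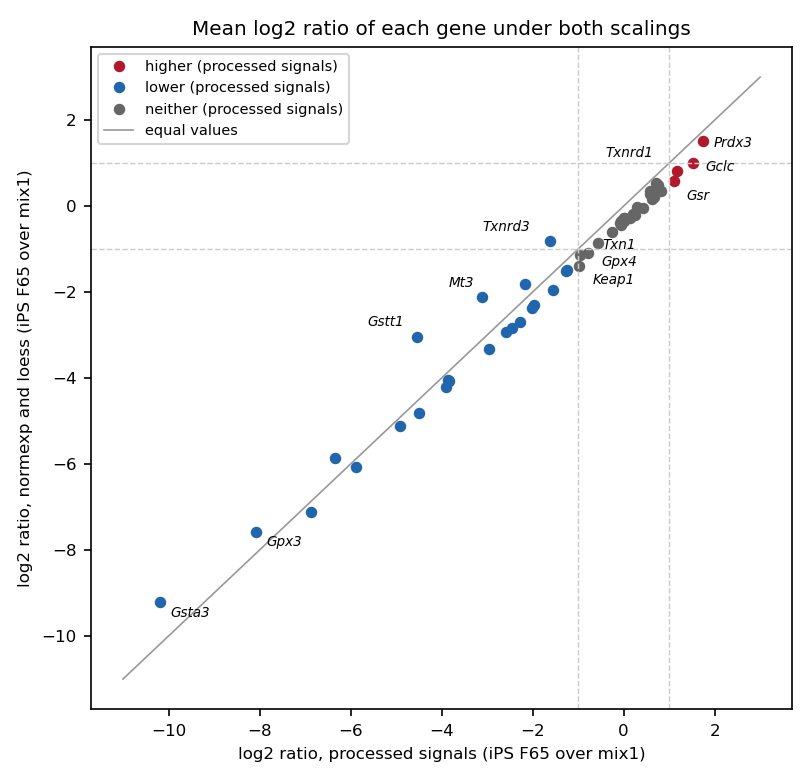
Mean log2 ratio (iPS F65 over mix1, n = 3 arrays) of the 50 tested genes from the processed signals (horizontal axis) and after normexp and loess (vertical axis), coloured by the call from the processed signals, with the line of equal values and dashed lines at -1 and 1. Most points lie below the line; those above it are Txnrd3, Srxn1, Mt3, Gstt1, Gstm2, Gpx3 and Gsta3. Of the 4 higher genes only Prdx3 and Gclc stay above 1 on the vertical axis, Gclc at 1.01.

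Genes around these pathways, which the naming rule did not select, were counted in 8 lists drawn from general knowledge, against the same background of 30.9% higher and 24.5% lower. A listed gene given only a bound passed the filter through 1 channel alone, so that the filter fixed its direction. Its bound is for the processed signals, and none is given after loess. Of 23 tested genes of glutathione supply and turnover, 3 were higher and 10 lower, with a median log2 ratio of -0.43. The highest were Ahcy (1.82), which clears S-adenosylhomocysteine, and the aminopeptidase Lap3 (1.19); Lap3 was 0.96 and not called after loess, which left 1 higher gene in the list. The ectoenzyme Anpep was lowest (-6.78), and Ggt1, the transferase that opens extracellular glutathione, was at least 11.5-fold lower and below background in iPS F65 cells. With backgrounds as given 3 genes of this list were lower, and 6 where both channels had to be above background. Of 16 genes that supply NADPH, 4 were higher, 9 were lower, and the median was -1.16. The mitochondrial folate enzyme Mthfd1l (2.40) and the malic enzyme Me2 (1.80) were highest, and the formyltetrahydrofolate dehydrogenases Aldh1l1 (-5.37) and Aldh1l2 (-5.25) were lowest.

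Among 18 regulators and partners of Nrf2, 5 were higher, 6 were lower, and the median was -0.18. Nfe2l3, which encodes the related factor Nrf3, was at least 9.89-fold higher in iPS F65 cells and below background in mix1, and Pgam5, a mitochondrial phosphatase that binds Keap1, had 1.96. The log2 ratio of Nfe2l3, not a measured fold, was 3.31, and 2.09 after loess. The transcription factor Maf was at least 20.3-fold lower and below background in iPS F65 cells, with a log2 ratio of -5.89, and -3.92 after loess. The loess values of Nfe2l3 and Maf were smaller folds than their bounds, which hold for the processed signals only. Of 31 other known Nrf2 target genes, 5 were higher, 14 were lower, and the median was -0.86. The aldehyde reductase Akr7a3 (2.59) and the efflux pump Abcc4 (2.18) were highest, the reductase Akr1b8 (-7.49) was lowest, and the pump Abcc3 was at least 16.1-fold lower and below background in iPS F65 cells.

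Of 26 thioredoxin partners and thiol repair genes, 5 were higher, 6 were lower, and the median was -0.17. The ribonucleotide reductase subunit Rrm2 (1.66) and Glrx3 (1.55), a glutaredoxin that the array names Txnl2, were highest, and Txnip (-2.38), which binds and inhibits thioredoxin, and the disulphide isomerase P4hb (-2.17) were lowest. Of 13 genes of selenoproteins and their synthesis, 4 were higher, 5 were lower, and the median was 0.15. Sephs1 (1.82) and Sephs2 (1.25), both named after selenophosphate synthetase, were highest. The deiodinase Dio3 (-6.19), above background on 2 of 3 iPS F65 arrays, and Selenos (-2.59) were lowest. Sephs2 did not keep its call after loess.

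Of 20 tested oxidant-producing enzymes 13 were lower and 1, monoamine oxidase Maoa (1.46), was higher, with a median of -3.38. The count of lower genes depended on the processing, at 4 with backgrounds as given and 6 where both channels had to be above background. The lysyl oxidase Lox (-8.73), a fibroblast enzyme that yields hydrogen peroxide, was lowest, and xanthine oxidoreductase, Xdh, was at least 81.2-fold lower and below background in iPS F65 cells. The amine oxidase Aoc3 had the smallest difference among the lower genes, at -1.96. The list also holds NADPH oxidase subunits of phagocytes, and myeloid marker signals summed to 3561 to 4688 in iPS F65 cells and 264142 to 308207 in mix1; their part in the count was not tested. Of 31 genes of zinc, copper and iron handling, 6 were higher, 11 were lower, and the median was -0.35. Hfe (2.38) and the transferrin receptor Tfrc (2.14), both of iron handling, were highest, and ceruloplasmin, Cp (-5.20), above background on 1 of 3 iPS F65 arrays, and the zinc transporter Slc39a13 (-3.94) were lowest.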

How the data were processed

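The scanner files hold green and red processed signals, intensities in arbitrary units that the authors' Agilent Feature Extraction software (version 9.5.3.1, per the file headers) background-subtracted and dye-normalized. The deposited value table holds their log2 ratios and differed from log2(iPS F65/mix1) by at most 3.1e-06. Direction follows the dyes in the labels.

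Control spots and outlier-flagged spots were left out, and spots of a probe averaged. The 25801 probes well above background on all 3 arrays in either channel were fitted with limma 3.58.1 (R 4.3.3) and its eBayes test of the mean log2 ratio against 0, with Benjamini-Hochberg adjustment over all of them. On simulated data for this comparison (25801 probes), 91 of 100 changes of 1.5 and 97 of 100 of 3 (log2) were recovered, with 0 false calls. Unchanged probes were simulated as noise around 0 with the observed spread between arrays, so that few could reach the fold threshold. Dye bias, background error and the spread of mix1 were not simulated. Precision is limited by the number of arrays.

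Where iPS F65 or mix1 was below background on all arrays, a bound was computed on Aquantile-scaled levels: the bright channel's mean over the higher of the dim probe's own level and the lowest level well above background. The adjusted p printed beside a bound is that of the fitted ratio and does not test the bound. Bounds after loess were added after seeing the data. Alternatives covered background correction, normalization, centring, filters, flags, the deposited table, the variance model, replicates, the fold threshold and the probe that stands for a gene.

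The genes and lists were chosen with earlier results of these data known. Per-array values are given for the 10 highest and 10 lowest called genes, the genes with the highest signal in each channel and the regulators and main enzymes of each class. Of each pathway list, the 2 called genes with the highest and the 2 with the lowest ratios are named, except 1 gene that is not reported here. Of 57 genes, 46 matched RefSeq by accession and 10 by symbol, and 49 had a RefSeq promoter (GRCr8). Probe sequences and strands come from the scanner files; the sources used here do not name their build.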

Additional observations from a re-analysis of the deposited data

How the results depend on the processing

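Under normexp and loess with uneven backgrounds replaced, 2 probes and 2 genes were higher, and the lists of glutathione supply (1), Nrf2 regulators (3), other Nrf2 targets (3), thioredoxin partners (2) and selenoproteins (1) had fewer higher genes. Log2 ratios near 0 turned negative for Glrx2 (-0.18), Gstm1 (-0.27), both Hmox2 probes (-0.26 and -0.28), Nqo2 (-0.21), Prdx2 (-0.00996), Sod1 (-0.28), Txn2 (-0.34) and Txnrd2 (-0.034). With backgrounds as given, 2 probes and 2 genes were higher, 19 probes and 18 genes were lower, and the lists changed to 3 lower (glutathione supply), 3 higher and 3 lower (Nrf2 regulators), 3 higher and 9 lower (other Nrf2 targets), 3 higher (thioredoxin partners), 1 higher (selenoproteins), 4 lower (oxidant producers), and 2 higher and 5 lower (metals); Nqo2 (-0.054), Sod1 (-0.11) and Txn2 (-0.032) turned negative, and 13 of 61 probes lost their call. The cause was not tested. Requiring both channels above background, which tests fewer genes, left 6 lower genes in the lists of glutathione supply and of oxidant producers. Without a filter on dim probes 8 probes and 7 genes were higher, and at a log2 ratio of at least 2 no probe or gene (0 and 0) was. Leaving out 1 array left every call of the 61 probes but Keap1's (counted as lower at -1.01 without array 3), and moved Hmox2 between -0.0020 and 0.016, Sod1 between -0.013 and 0.016 and Txn2 between -0.014 and 0.038. Centring, kept outlier flags, the deposited table and the trended robust variance changed no call of the 61 probes. The log2 ratio of each array pairs iPS F65 with mix1, so the main test is already paired by array. No further block was left to model.

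Depth is limited by signal over background: 6 tested probes had only a bound, which fell to 531 for Gsta3, 6.81 for Gstt1, 4.33 for Mt3 and 1.74 for Txnrd3 after loess. Dye and group cannot be told apart, and 1 line and 1 mixed control were measured.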
